A study of Sus scrofa with 9 samples.

Results

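The genes of the laminins and integrins were examined in developing deciduous molars. Members were the rows whose symbol is that of a laminin alpha, beta or gamma chain (LAMA, LAMB or LAMC with a number) or of an integrin alpha or beta subunit (ITGA or ITGB with a number or letters), which gave 34 of the 34580 rows listed. Of these, 33 were examined, namely 9 laminin chains, 23 integrin subunits and ITGBL1, which encodes an integrin beta-like protein and no receptor subunit. Total RNA of germs of the mandibular deciduous molar Dm3 of miniature pigs had been sequenced at the cap stage (embryonic day 40, E40), the early bell stage (day 50, E50) and the late bell stage (day 60, E60). Each stage had 3 libraries, with no treatment or genetic change in any group. Fetuses of each stage were taken from timed pregnancies, and the sources used here do not say how many fetuses or germs went into a library. Values are FPKM, the fragments of a gene scaled to the length of its transcript and to the mapped fragments of the library.

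Laminins are trimers of an alpha, a beta and a gamma chain that assemble into the sheet of the basement membrane between epithelium and mesenchyme. Integrins are pairs of an alpha and a beta subunit that span the cell membrane and bind laminins, fibronectin, collagens or other ligands outside the cell. In the tooth germ the basement membrane separates the enamel epithelium from the dental papilla, and it is lost from beneath the ameloblasts once they start to secrete enamel.

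The 9 libraries fell into a shallow and a deep set. Whole reads recovered from the steps of the FPKM values numbered 938527 to 1760356 in the 5 shallow libraries (all of E40, and E60 libraries 2 and 3) and 14362235 to 16674750 in the 4 deep libraries (all of E50, and E60 library 1). A single row, LOC102158401, held 22.3% to 40.6% of the reads in the shallow libraries and at most 0.576% in the deep ones. Between E40 and E50, stage and library set cannot be told apart, so the change to the late bell was read within a set, from E40 to E60 in the shallow libraries and from E50 to E60 in the deep ones. The study's methods call the libraries of a stage biological replicates but do not say whether each came from a separate animal, so p-values measure the spread between these libraries. The tissue label was checked against marker genes. Epithelial KRT5 lay between 858 and 3659.7 FPKM over the 9 libraries, mesenchymal VIM between 559.6 and 2753 FPKM, and the summed FPKM of 5 enamel matrix and ameloblast genes rose from between 14.4 and 23.9 at E40 and E50 to 18298, 3387 and 8385 in E60 libraries 1, 2 and 3. Most of the E60 sum was AMBN and AMEL, while AMTN and ODAM, also among the 5, stayed at or below 4.83 FPKM at E60.

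Of the 33 members, 30 passed the filter of at least 1 FPKM in at least 2 libraries, 7 of them laminin chains, 22 integrin subunits and 1 ITGBL1. LAMA1, the alpha chain of early embryonic basement membranes, was listed at 0 in every library. The same held for CDH1, DAG1, NID1 and AGRN, genes that epithelium or most tissues use, so a 0 may be a failed estimate. LAMB4 stayed at or below 0.415 FPKM and ITGB2, the beta subunit of leukocyte integrins, at or below 1.02 FPKM. At this depth 7 members had 3 reads or fewer in at least 1 shallow library, while 24 had at least 100 reads in every deep library. LAMA5, ITGA7 and LAMC1 were not rows under those symbols. LAMC1, the gamma chain of most laminins, was read from the row that carries its RefSeq gene ID, LOC100514785.

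LAMA3 and LAMB3 encode chains of the laminins that anchor epithelia through hemidesmosomes. LAMA3 (laminin alpha 3) rose to E60 in both library sets, by 2.54 on the log2 scale in the shallow and 3.98 in the deep libraries. The deep set has a single E60 library, and the call there was lost without E40 library 2, without any 1 of the E50 libraries, with 3 stages not divided by set and with a replicate block (adjusted p up to 0.111 in limma). LAMB3 (laminin beta 3) was higher by 1.32 and 2.29, without passing the test in either set. LAMA3 came to 59.8% to 66.1% of the alpha chains at E60, against 28.2% to 34.4% at E40 and 9.99% to 10.7% at E50.

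LAMA3 stood at 6.83, 7.90 and 11.0 FPKM at E40, 8.12, 9.47 and 8.28 at E50, and 137, 36.4 and 66.7 at E60, the values of a stage being those of libraries 1, 2 and 3. Every E60 library lay above every earlier one, and the deep E60 library was the highest. The log2 fold change, on the log2(FPKM + 0.1) scale that understates changes of low genes, was 2.54 (SE 0.32) from E40 to E60 in the shallow libraries and 3.98 (SE 0.41) from E50 to E60 in the deep ones. With limma and p-values adjusted after Benjamini and Hochberg over all rows, the adjusted p was 0.00555 and 0.0175. Changes were called where the adjusted p was under 0.05 and the fold change was at least 1 log2 unit.

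LAMB3 stood at 4.61, 4.45 and 3.27 FPKM at E40, 6.31, 4.47 and 5.11 at E50, and 26.0, 6.52 and 16.2 at E60. E60 library 2 was only just above the highest E50 library, and the other E60 libraries were well above. The log2 difference was 1.32 (SE 0.40) and 2.29 (SE 0.51), with adjusted p of 0.0949 and 0.347 in limma. A second row with the RefSeq gene ID of LAMB3, LOC100736655, had 0, 12.4 and 10.9 FPKM at E40, 8.0, 5.30 and 7.46 at E50 and 33.4, 16.8 and 55.1 at E60. Reads of LAMB3 may thus be divided between 2 rows, and its level is uncertain.

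**Figure D1:**
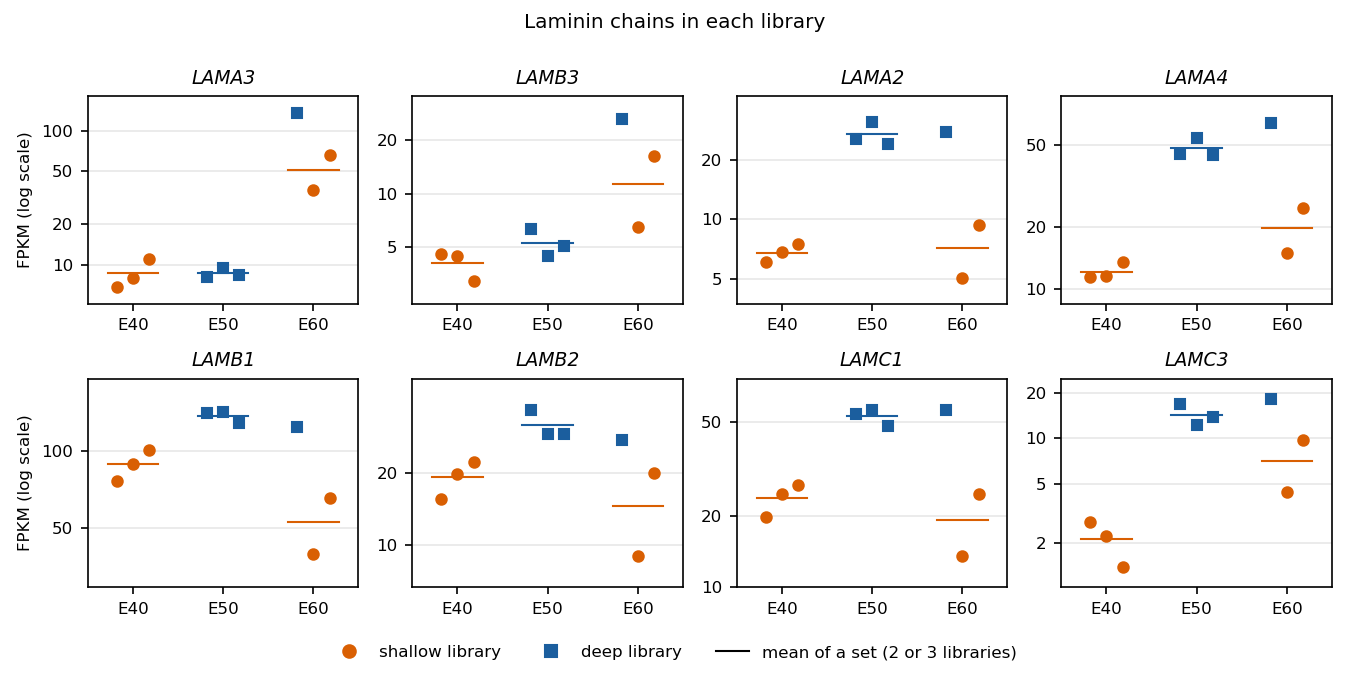
FPKM of 8 laminin chains in each library on a log axis, by stage; circles are shallow and squares deep libraries, and lines are means of a set with 2 or 3 libraries. LAMA3 lies higher in all 3 E60 libraries than in any earlier library. All 8 chains, LAMA3 included, are higher in the deep than in both shallow libraries at E60.

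Ratios between chains of one library do not depend on how that library was scaled. The ratio LAMB3/LAMB1 compares this epithelial beta chain with LAMB1, the beta chain of laminins found in most basement membranes. It was 0.0604, 0.0499 and 0.0325 at E40, 0.0448, 0.0315 and 0.0398 at E50, and 0.209, 0.164 and 0.246 at E60. On the log2 scale it rose by 2.10 within the shallow and by 2.42 within the deep set, and at E60 the sets differed by 0.046. The second row of LAMB3, LOC100736655, is not in this ratio, so its level is uncertain too.

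LAMA3/LAMA4 sets the epithelial alpha chain against LAMA4, the alpha chain of vessel and mesenchymal laminins. It was 0.601, 0.691 and 0.814 at E40, 0.179, 0.175 and 0.184 at E50, and 2.13, 2.46 and 2.69 at E60. LAMA4 exceeded LAMA3 in all 6 earlier libraries and LAMA3 exceeded LAMA4 in the 3 E60 libraries. In the exact permutation test of 3 against 3 libraries, two-sided, p was 0.1 for both of these ratios from E40 to E60 and from E50 to E60, the smallest p the design allows. With 36 tests over 18 ratios, 20 of them at that p, the adjusted p was 0.18, so no ratio could pass the threshold of 0.05. LAMA3/LAMA4 was added after seeing the data, so its p gives no support.

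As shares of the summed FPKM of each chain type, LAMA3 was 30.9% ± 3.16 (SD, n = 3) of the alpha chains LAMA2, LAMA3 and LAMA4 at E40 and 10.3% ± 0.375 (SD, n = 3) at E50. At E60 it was 59.8%, 64.7% and 66.1% in libraries 1, 2 and 3. LAMB3 was 3.75% ± 1.10 (SD, n = 3) of the beta chains at E40, 3.04% ± 0.450 (SD, n = 3) at E50, and 14.6%, 11.8% and 15.8% at E60. On these rows, the deep and the shallow E60 libraries lay closer to each other than to any library of E40 or E50 for both chains. LAMA5 is not in these sums, so the shares are of the chains listed. LOC100736655, the second row with the RefSeq gene ID of LAMB3, is not in them either. It had 0, 12.4 and 10.9 FPKM at E40, 8.0, 5.30 and 7.46 at E50, and 33.4, 16.8 and 55.1 at E60. The share of LAMB3 is thus uncertain.

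**Figure D2:**
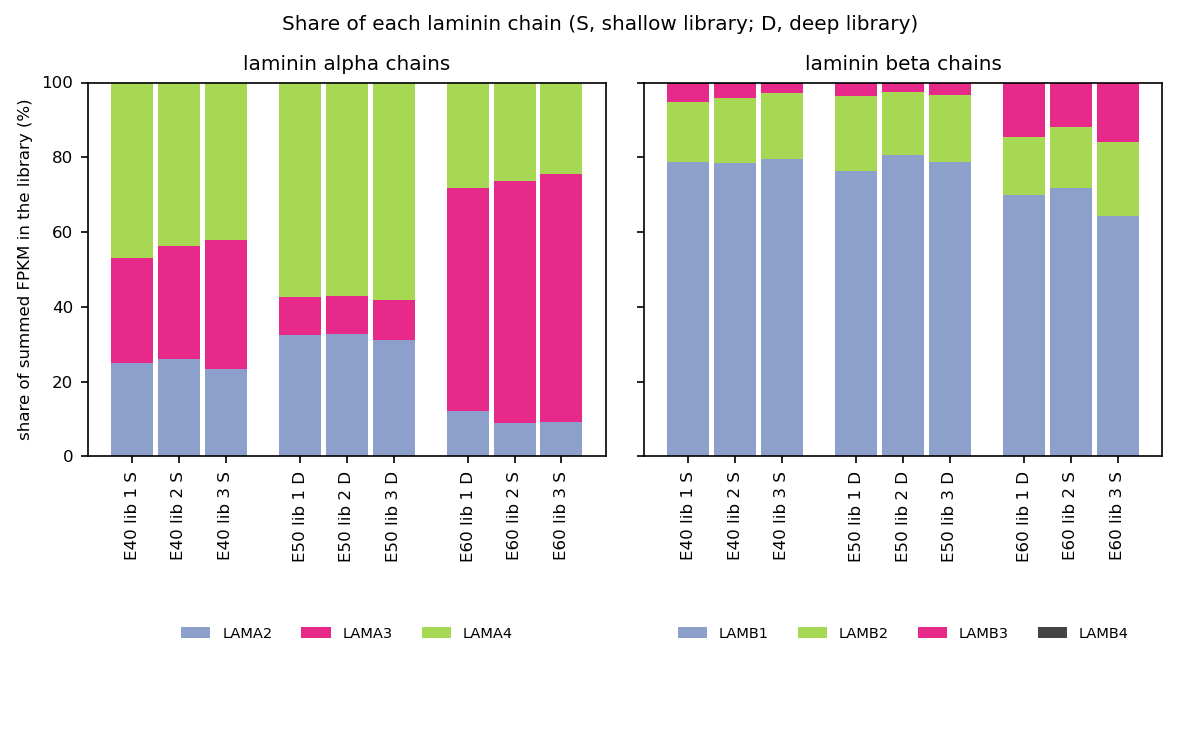
Stacked bars of the share of each laminin chain in the summed FPKM (%) of the alpha and beta chains, 1 bar per library (S, shallow; D, deep). LAMA3 and LAMB3 (magenta) take 59.8% to 66.1% and 11.8% to 15.8% of their type in the E60 libraries, more than in any E40 or E50 library. The second row of LAMB3, LOC100736655, is not in the bars.

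The other laminin chains examined did not pass the test from E40 to E60 or from E50 to E60 within a set. LAMB1 was the most abundant laminin chain at E40, at 76.3, 89.3 and 101 FPKM, then 141, 142 and 128 at E50, and 125, 39.7 and 65.7 at E60. Its log2 difference was -0.79 in the shallow libraries (adjusted p = 0.133 in limma) and -0.14 in the deep ones. LAMB2, the beta chain of mature vessel and muscle basement membranes, stood at 15.5, 19.9 and 22.3 FPKM at E40, 36.9, 29.3 and 29.2 at E50, and 27.6, 8.99 and 20.1 at E60. LAMB2/LAMB1 stayed between 0.204 and 0.307 in all 9 libraries, with overlapping stages. LAMC1 stood at 19.8, 24.7 and 27.0 FPKM at E40, 54.0, 56.3 and 47.8 at E50, and 56.2, 13.5 and 24.7 at E60.

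Of the mesenchymal and vessel chains, LAMA4 had 11.4, 11.4 and 13.5 FPKM at E40, 45.4, 54.2 and 44.9 at E50, and 64.3, 14.8 and 24.8 at E60. LAMA2, the alpha chain of muscle and nerve laminins, had 6.07, 6.82 and 7.49 at E40, 25.6, 31.1 and 23.9 at E50, and 27.5, 5.04 and 9.34 at E60. Both were high in deep and low in shallow libraries at E60. Relative to LAMA4, LAMA2 was at 0.534 to 0.596 at E40, 0.533 to 0.573 at E50 and 0.340 to 0.428 at E60. Every E60 library was below every earlier one (exact permutation test, two-sided p = 0.1, the smallest possible). This ratio too was added after seeing the data, so its p gives no support. LAMC3, a gamma chain that joins few trimers, had 2.80, 2.25 and 1.39 FPKM at E40, 17.0, 12.2 and 13.8 at E50, and 18.4, 4.37 and 9.69 at E60. From E40 to E60 in the shallow libraries it was higher by 1.61 (SE 0.42, adjusted p = 0.0626 in limma). Skeletal muscle markers moved with this contrast: their summed FPKM was 128 to 178 at E40 and 11.9 to 14.1 in the shallow E60 libraries. Of 6 tested, 5 were called lower with limma, against 4.48% of all rows, and MYOD1 was lower by -3.00 without being called. The part of muscle in the levels of LAMA2 was not tested.

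Over all members, 4 of the 30 tested were called from E40 to E60 in the shallow libraries, against 5.89% of the 19618 rows. These were LAMA3, ITGA4 and ITGA10, which were higher (background 1.41%), and ITGB8, which was lower (background 4.48%). From E50 to E60 in the deep libraries 1 of 30 was called, LAMA3, against 0.107% of rows. It was higher (background 0.0867%). That contrast has 1 late library, whose spread was taken to be that of the other groups. The median log2 fold change was -0.18 over the members and -0.46 over all rows in the shallow libraries, and 0.078 over the members and -0.069 over all rows in the deep ones. A rise of at least 1 log2 unit in both sets was seen in 4 of 30 members (13.3%), LAMA3, LAMB3, ITGA4 and ITGA10, and in 1.74% of all rows. For LAMB3 this rested on E60 library 3, without which its difference in the shallow libraries was 0.67, against 1.97 without E60 library 2, where it was called (adjusted p = 0.0197 in limma). A fall of that size in both sets was seen in none of the members and in 2.28% of rows. The E40 and shallow E60 libraries did not overlap for 15 of 30 members and for 35.8% of rows. The members were chosen as families known to be of interest in these data, and nothing is inferred from these shares about the families.

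The scale between libraries moved these counts. With FPKM divided by median-ratio size factors, which moved the median of all rows in the shallow libraries from -0.46 to -0.028, 8 members were called there, against 4.89% of rows. All 8 were higher (background 2.66%). They were LAMA3, LAMB3, LAMC3, LAMA4, ITGA4, ITGA10, ITGA8 and ITGB6. On recovered reads with limma-voom, 5 members were called in the shallow libraries (5.79% of rows) and 4 in the deep ones (1.59% of rows), the latter being LAMA3, LAMB3, ITGB6 and ITGA10. Over 16 alternatives to the shallow contrast, LAMA3 and ITGA4 were called higher from E40 to E60 in all 16. The alternative with 3 stages not divided by set is counted for both contrasts. It compares all E60 libraries with an earlier stage, so it crosses the library sets. In the deep libraries LAMA3 was called in 9 of 15 alternatives.

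**Figure D3:**
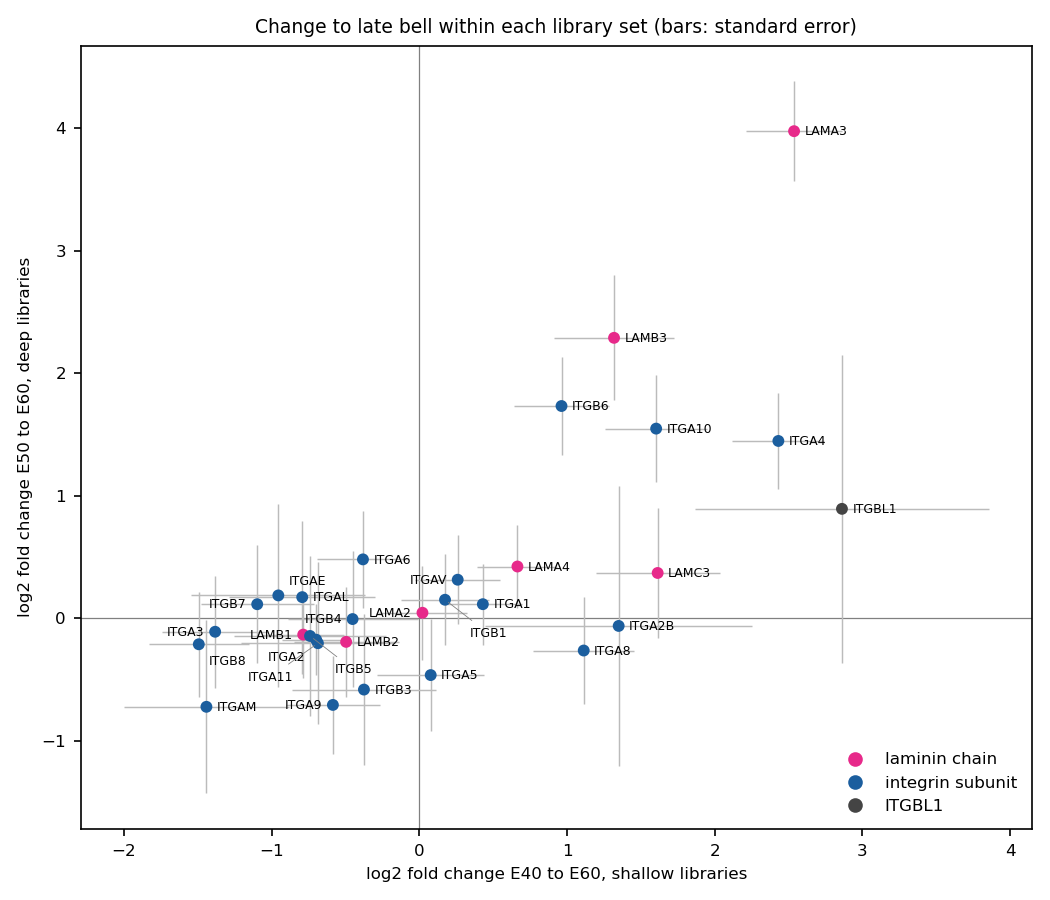
Log2 fold change to E60 of the 30 members tested, from E40 in the shallow libraries (x axis) and from E50 in the deep libraries (y axis), with standard errors as bars. LAMA3 lies highest on the y axis, at 2.54 and 3.98, and LAMB3, ITGB6, ITGA10 and ITGA4 also lie to the upper right. ITGBL1, with few reads, lies furthest right, at 2.86 and 0.89. Most integrins lie within 1 log2 unit of 0 on the y axis.

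Laminins with the LAMA3 chain are bound in hemidesmosomes by the integrin pair of ITGA6 and ITGB4, and elsewhere by ITGA3 with ITGB1. ITGA6 stood at 36.7, 37.3 and 52.6 FPKM at E40, 55.1, 63.7 and 61.8 at E50, and 83.8, 23.4 and 43.5 at E60. ITGB4 stood at 6.97, 7.69 and 8.97 at E40, 11.4, 8.13 and 9.39 at E50, and 9.48, 3.24 and 9.97 at E60. Neither passed the test in any of the 3 comparisons, and E60 overlapped the earlier stages for both. ITGA6 was higher by 0.48 (SE 0.39) in the deep and lower by -0.38 (SE 0.31) in the shallow libraries, a difference that was 0.062 after median-ratio scaling. For ITGB4 the log2 differences were -0.0081 (SE 0.56) in the deep and -0.45 (SE 0.44) in the shallow libraries. These errors leave room for changes of about 1 log2 unit, so the receptor pair is not shown to be stable. ITGA6 was between 4.36 and 8.83 times ITGB4 in FPKM over the 9 libraries.

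ITGA3 stood at 4.41, 4.68 and 2.74 FPKM at E40, 6.66, 5.17 and 5.57 at E50, and 5.33, 1.12 and 1.76 at E60. Both shallow E60 libraries were lower than every E40 library, with a log2 difference of -1.38 (SE 0.36, adjusted p = 0.0628 in limma), and the deep E60 library lay among those of E50. ITGB1, the common beta subunit of receptors for laminin, collagen and fibronectin, stood at 64.8, 80.0 and 90.5 FPKM at E40, 256, 311 and 261 at E50, and 305, 68.9 and 111 at E60. It was thus high in every deep and low in every shallow library, and its differences within a set were 0.17 and 0.15.

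Genes that work beside these receptors were taken from fixed lists. Of 6 hemidesmosome and anchoring genes tested, none was called in either set with limma (5.89% and 0.107% of all rows were), 2 in the shallow and 1 in the deep libraries having an unadjusted p under 0.05. With limma-voom 2 of them were lower in the shallow libraries. COL17A1, the transmembrane collagen of hemidesmosomes, stood at 73.0, 86.3 and 96.3 FPKM at E40, 89.0, 76.6 and 75.4 at E50, and 162, 54.9 and 92.6 at E60. Of 12 basement membrane partners tested, none was higher and 2 were lower from E40 to E60 in the shallow libraries, namely COL4A5 and COL4A6, chains of an epithelial type of collagen IV. After median-ratio scaling 1 of the 12 was higher and 2 were lower. COL4A5 stood at 11.1, 10.8 and 11.6 FPKM at E40, 15.9, 14.6 and 12.6 at E50, and 7.17, 1.65 and 2.41 at E60. It was lower at E60 than in any earlier library, with a log2 fold change of -2.43 (SE 0.26, adjusted p = 0.00264 in limma) in the shallow and -0.99 (SE 0.33, adjusted p = 0.909) in the deep libraries. COL4A6 changed by -2.57 (SE 0.43, adjusted p = 0.0154 in limma) and -1.04 (SE 0.55, adjusted p = 1). Of 8 other laminin receptors and 19 integrin adaptors and linkers tested, none was called in either set with limma or limma-voom. At an unadjusted p under 0.05 in limma there were 3 and 2 of them in the shallow libraries and 0 and 1 in the deep ones.

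Markers of other cell types of the germ moved as well. Among 5 ameloblast markers, ENAM, AMBN and AMEL were higher at E60 by at least 1 log2 unit in both sets, as were 1.74% of all rows. AMTN stood at 0, 0 and 3.27 FPKM at E40, 10.5, 11.6 and 15.6 at E50, and 4.83, 1.04 and 0.819 at E60. ODAM stayed at or below 2.06 FPKM. Among 5 odontoblast and bone matrix markers, PHEX, DMP1 and DSPP were higher at E60 in both sets by that size too. DSPP differed by 7.95 (SE 1.17, adjusted p = 0.00976 in limma) in the shallow libraries. In the deep ones it differed by 8.27 (SE 1.48) and was not called. IBSP was not higher in the shallow libraries, and BGLAP was higher in neither set. ENAM, an enamel matrix gene, went from 1.09, 1.22 and 1.55 FPKM at E40 and 0.209, 0.107 and 0.0534 at E50 to 890, 212 and 327 at E60. The summed FPKM of 9 epithelium markers was 3959 to 5647 at E40, 2506 to 3490 at E50 and 3357, 1380 and 4083 at E60. Most of that sum was KRT5 and KRT14, and CDH1 was listed at 0 throughout. The members moved apart, KRT15 being lower in the shallow libraries by -5.11 (adjusted p = 0.00231 in limma) while SHH was higher by 1.48 (adjusted p = 0.051) and called with median-ratio scaling. In whole germs, a change in the number of cells of a type and a change in RNA per cell cannot be told apart, and the part of either in the rise of LAMA3 was not tested.

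ITGB6 and ITGB8 encode beta subunits that pair with ITGAV and bind latent TGF-beta. ITGB6, an epithelial subunit, stood at 5.09, 5.05 and 4.81 FPKM at E40, 5.94, 6.71 and 6.43 at E50, and 21.3, 6.92 and 13.9 at E60. All E60 libraries were higher than all earlier ones, library 2 only just. The log2 difference was 0.96 (SE 0.32, adjusted p = 0.114 in limma) in the shallow and 1.73 (SE 0.40, adjusted p = 0.415) in the deep libraries, so that ITGB6 was not called.

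ITGB8 stood at 2.20, 2.34 and 3.03 FPKM at E40, 7.43, 10.7 and 9.53 at E50, and 7.84, 0.656 and 1.03 at E60. In the shallow libraries E60 was below every E40 library, and ITGB8 fell by 1.49 (log2 fold change -1.49, SE 0.34, adjusted p = 0.0419 in limma). The deep E60 library lay within the E50 range, with a difference of -0.21 (SE 0.43). The call in the shallow libraries was lost in 7 of 9 fits that left out 1 library, in each case but those without E60 library 1 or 3, with adjusted p up to 0.102 in limma. It was also lost in 5 of 7 other alternatives, namely both pseudocounts, the replicate block, median-ratio scaling (-1.10, adjusted p = 0.0828) and 3 stages not divided by set (-0.46, adjusted p = 0.794). ITGB6/ITGB8 was 2.31, 2.16 and 1.59 at E40, 0.799, 0.629 and 0.674 at E50, and 2.72, 10.6 and 13.5 at E60. It rose by 2.46 on the log2 scale within the shallow and by 1.95 within the deep set (exact permutation test, two-sided p = 0.1 for each comparison of stages, the smallest possible). ITGB6/ITGB8 was added after seeing the data, so its p gives no support.

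ITGAV, the partner of both, stood at 19.8, 21.5 and 29.7 FPKM at E40, 91.7, 114 and 92.2 at E50, and 123, 22.3 and 34.9 at E60. Its level followed the library set, and its differences within the sets were 0.26 (SE 0.29) and 0.31 (SE 0.36). ITGAV/ITGB1 lay between 0.269 and 0.403 in all 9 libraries. ITGB5, another partner of ITGAV, ranged from 18.4 to 95.6 FPKM and ITGB3, a partner found on platelets and vessels, from 1.67 to 5.14 FPKM, and neither was called in any comparison. ITGA2B, the platelet subunit, stayed at or below 1.02 FPKM. The summed FPKM of 7 platelet markers was 26.6 to 44.9 in the shallow and 1.70 to 3.79 in the deep libraries. Most of it was GP9, at 24.8 to 39.0 in the shallow and 1.08 to 1.75 in the deep libraries, GP5 and GP6 overlapped between the sets, and PPBP was listed at 0 throughout.

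**Figure D4:**
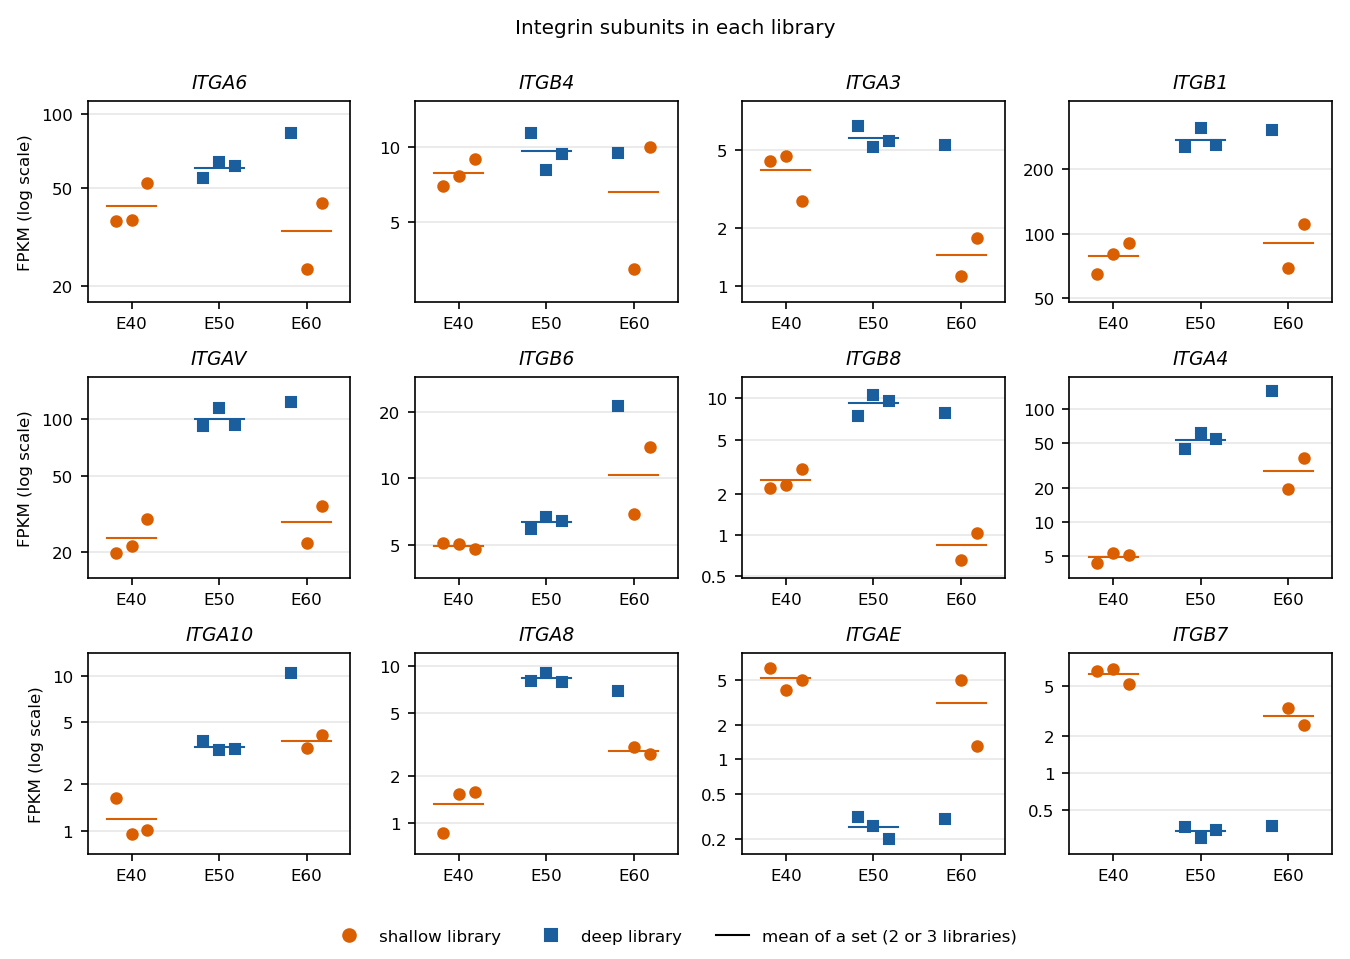
FPKM of 12 integrin subunits in each library on a log axis, by stage; circles are shallow and squares deep libraries, and lines are means of a set with 2 or 3 libraries. ITGA4, ITGA10 and ITGB6 are higher in the E60 libraries of both sets than in the earlier libraries of the same set, while ITGAE and ITGB7 are low in every deep library.

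ITGA4 encodes the alpha subunit of receptors for fibronectin and VCAM1. It stood at 4.29, 5.29 and 5.07 FPKM at E40, 44.2, 61.0 and 53.7 at E50, and 143, 19.3 and 36.8 at E60. Within each set the E60 libraries were all higher than the earlier stage, and the shallow E60 libraries were lower than the deep E50 ones. ITGA4 rose by 2.43 (SE 0.31, adjusted p = 0.00555 in limma) in the shallow libraries. The difference in the deep libraries was 1.45 (SE 0.39, adjusted p = 0.594). Relative to ITGB1, with which it pairs, ITGA4 was at 0.0561 to 0.0663 at E40, 0.173 to 0.206 at E50 and 0.280 to 0.470 at E60. Relative to ITGAV it was at 0.171 to 0.246, 0.481 to 0.582 and 0.865 to 1.17. Both ratios thus increased from stage to stage with no overlap, although the step from E40 to E50 also crosses the library sets. ITGA4/ITGAV was added after seeing the data. ITGA5, the other fibronectin-binding alpha subunit, ranged from 2.44 to 9.30 FPKM, with differences within the sets of 0.077 and -0.47, and ITGA5/ITGA4 was 0.668 to 0.726 at E40, 0.122 to 0.211 at E50 and 0.0397 to 0.138 at E60. E50 and E60 overlapped (exact permutation test, two-sided p = 0.5), and the step from E40 to E50 crosses the library sets.

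Among 16 integrin ligands outside the laminins, 1 was higher and 2 were lower in the shallow libraries (5.89% of all rows were called). The balance depended on the fit, with 3 higher and 1 lower after median-ratio scaling and 4 higher and 2 lower with limma-voom. None was called in the deep libraries (0.107% of all rows), where 3 had an unadjusted p under 0.05 in limma and 2 were called higher with limma-voom. FBN2 (fibrillin 2) stood at 17.4, 21.8 and 27.2 FPKM at E40, 161, 184 and 140 at E50, and 278, 56.5 and 78.7 at E60, and rose by 1.61 (SE 0.28, adjusted p = 0.0175 in limma) in the shallow libraries. TNC (tenascin C) fell there by 1.29 (SE 0.28, adjusted p = 0.0341 in limma) and THBS1 (thrombospondin 1) by 2.12 (SE 0.31, adjusted p = 0.00938). In the deep libraries FBN2, TNC and THBS1 differed by 0.79, -0.65 and -0.88. FN1 (fibronectin) and VCAM1, the ligands of ITGA4, differed by 0.45 (adjusted p = 0.336 in limma) and 1.09 (adjusted p = 0.211) in the shallow libraries. Their differences in the deep ones were 0.69 and 0.71.

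The collagen-binding alpha subunits are ITGA1, ITGA2, ITGA10 and ITGA11, each a partner of ITGB1. ITGA10, known from cartilage and bone, stood at 1.62, 0.965 and 1.02 FPKM at E40, 3.79, 3.31 and 3.38 at E50, and 10.4, 3.43 and 4.13 at E60. Within each set E60 was above the earlier stage. It rose by 1.60 (SE 0.34, adjusted p = 0.0341 in limma) in the shallow libraries and differed by 1.55 (SE 0.43, adjusted p = 0.641) in the deep ones. The call in the shallow libraries was lost in 6 of 9 fits that left out 1 library, with adjusted p up to 0.0855 in limma: those without E40 library 2 or 3, without any 1 of the E50 libraries, and without E60 library 2. It was also lost with the replicate block and with 3 stages not divided by set (adjusted p = 0.0979). ITGA1, ITGA2 and ITGA11 differed by 0.43, -0.70 and -0.69 in the shallow and by 0.11, -0.18 and -0.21 in the deep libraries, none of them called.

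The remaining alpha subunits were ITGA8 and ITGA9. ITGA8, a receptor subunit for nephronectin, stood at 0.856, 1.53 and 1.58 FPKM at E40, 8.07, 8.99 and 7.93 at E50, and 6.91, 3.03 and 2.74 at E60. The shallow E60 libraries were above those of E40 by 1.11 (SE 0.34, adjusted p = 0.0964 in limma). ITGA9, a tenascin-binding subunit, had 3.36 to 25.4 FPKM, with differences of -0.59 and -0.71. ITGBL1 had no more than 3.0 FPKM and was listed at 0 in 2 of 3 E40 libraries. Its differences were 2.86 (SE 0.99, adjusted p = 0.127 in limma) in the shallow and 0.89 (SE 1.26) in the deep libraries. No shallow library had more than 6 reads of it.

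Integrins of leukocytes were low. ITGAL, ITGAM and ITGB2 had no more than 2.68, 1.19 and 1.02 FPKM. The pan-leukocyte marker PTPRC had at most 0.921 FPKM, and the summed FPKM of 10 leukocyte markers was 8.82 to 20.5. ITGAE and ITGB7 pair with each other on lymphocytes in the gut lining. ITGAE stood at 6.40, 4.08 and 4.97 FPKM at E40, 0.312, 0.257 and 0.199 at E50, and 0.302, 4.97 and 1.30 at E60. ITGB7 stood at 6.71, 6.93 and 5.26 at E40, 0.362, 0.298 and 0.346 at E50, and 0.370, 3.36 and 2.45 at E60. In FPKM every shallow library was higher than every deep one for both genes, at E60 too, and the ratio of ITGAE to ITGB7 stayed between 0.531 and 1.48 in all 9 libraries. ITGAE had 21, 15 and 23 reads at E40, 16, 15 and 10 at E50, and 17, 24 and 8 at E60. ITGB7 had 19, 22 and 21, then 16, 15 and 15, then 18, 14 and 13. Reads were thus few and similar in number in both sets, and the levels and the ratio rest on them. CD2, a T cell marker, was also higher at E40 (3.69 to 7.29 FPKM) than at E50 (at most 0.0680 FPKM), whereas CD53 and LAPTM5 were lower there.

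From E40 to E50, 15 of 30 members were called, against 54.6% of all rows. Of these, 13 were higher at E50 (background 30.6%), namely LAMA2, LAMA4, LAMC3, ITGB1, ITGB8, ITGAV, ITGA1, ITGA4, ITGA5, ITGA8, ITGA9, ITGA10 and ITGBL1, and 2 were lower (background 24%), ITGAE and ITGB7, both by 3.87 on the log2 scale (log2 fold change -3.87). The largest rise was that of ITGA4, by 3.40 (SE 0.28, adjusted p = 1.85e-05 in limma). At E60, where both sets hold a library of the same stage, all 15 differed between the deep and the shallow libraries in the same direction, 14 of them by at least 1 log2 unit. Of all 10707 rows called, 87.9% did so by that size. With the library set as a term, a fit added after seeing the data, 0 of 30 members and 0.255% of rows were called from E40 to E50 with limma, and 3 members had an unadjusted p under 0.05. That fit takes the set difference from a single deep and 2 shallow E60 libraries.

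LAMA3, LAMB3 and ITGB6 were among the 15 members tested but not called from E40 to E50. Their log2 differences there were 0.033, 0.36 and 0.34. At E60 they were higher in the deep than in the shallow libraries by 1.47, 1.33 and 1.11.

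**Figure D5:**
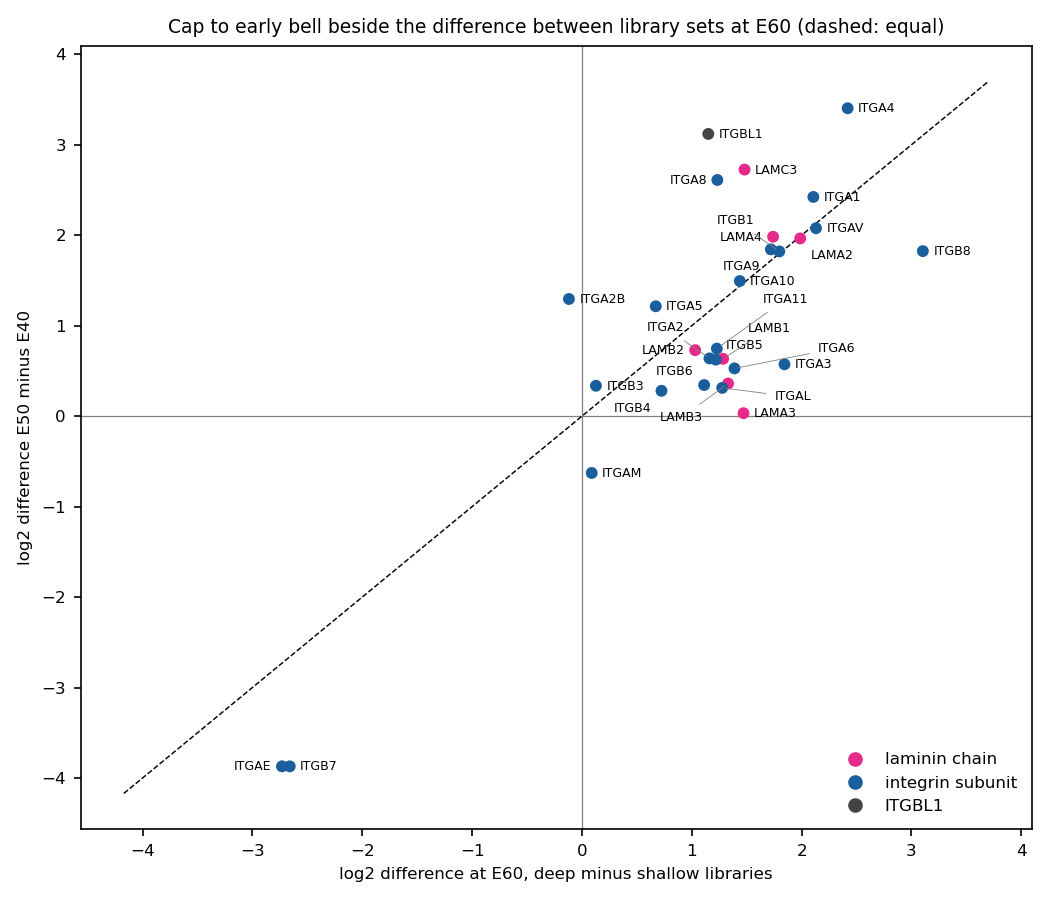
Log2 difference between E50 and E40 of the 30 members tested (y axis) beside the log2 difference between the deep and the shallow libraries at E60 (x axis); the dashed line marks equal values. ITGB1, ITGAV, LAMA2, LAMA4 and ITGA10 lie near the line, LAMA3 lies near 0 on the y axis, and ITGAE and ITGB7 lie at -3.87 on the y axis and negative values on the x axis.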

How the data were processed

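RNA of tooth germs was measured in 9 libraries, 3 per stage, grouped by the deposited stage labels. The authors depleted rRNA, prepared directional libraries and aligned the reads with TopHat; the submitters' processing notes name the build Sscrofa10.2. They deposited one table of FPKM values, with no further scaling between libraries stated and 0 columns of other series. RefSeq gene IDs of another assembly were used for names only. Whole reads were recovered from the steps of FPKM across libraries, with a tolerance of 0.02 reads plus rounding, for all 14110 rows above 0 in every library; libraries were divided at 5000000 recovered reads. The floor was set at 3 reads and covers counting error only.

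Rows with at least 1 FPKM in at least 2 libraries (19618) were fitted on log2(FPKM + 0.1) with limma 3.58.1 (R 4.3.3), mean-variance trend, in 4 groups: E40, E50 and E60 divided by library set. P-values were adjusted after Benjamini and Hochberg over all rows. Subunit ratios were compared with exact permutation tests (scipy 1.17.1). Scripts were tested on simulated data. Alternatives were pseudocounts of 1 and 0.01, no filter, median-ratio scaling, 3 stages with no division by set, a replicate block, no fold limit, limma-voom on recovered reads, and leaving out each library. Library set as a term, 5 ratios (LAMA3/LAMA4, LAMA2/LAMA4, LAMC3/LAMC1, ITGB6/ITGB8 and ITGA4/ITGAV) and chain shares were added after seeing the data. Members and lists were chosen with earlier results of these data known. Values in every library are given for the main laminin chains, their receptors and each member called within a set, and for genes of the lists where a result turns on them. Sequences and genome positions were not used here, and 1 member is not reported here.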

Additional observations from a re-analysis of the deposited data

How the results depend on the processing

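The number of members called from E40 to E60 in the shallow libraries, 4, was 2 with 3 stages not divided by set, 8 with median-ratio scaling, and between 2 and 10 on leaving out 1 library (10 without E60 library 3, and 2 without E40 library 2 or any 1 E50 library). From E50 to E60 in the deep libraries, 1 became 0 with 3 stages, 4 with limma-voom, and between 0 and 1 on leaving out 1 library (0 without E40 library 2 or any 1 E50 library). Leaving out E60 library 1 gave no deep contrast. Over all rows with 3 stages, 14 were called from E50 to E60 with limma, of 5923 at an unadjusted p under 0.05. In the deep contrast 21 rows were called with limma and 312 with limma-voom. With median-ratio scaling 529 rows were higher and 443 lower in the shallow contrast, against 276 and 879 without it. From E40 to E50, 15 members became 0 with library set as a term, with or without median-ratio scaling (50 and 42 of all rows with limma). In the other 35 combinations of comparison and setting the count stayed within 1.5 times. The causes were not tested.

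Correlations of same-numbered libraries, the deep E60 library left out, lay between -0.0106 and 0.261. Libraries with different numbers were not correlated, so this does not decide whether replicate numbers pair the libraries. With a replicate block, 2 members were called in the shallow and 0 in the deep contrast, where 5 rows were called in all.

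Signs that turned were mostly of changes not called. With median-ratio scaling the log2 fold change of ITGA6 in the shallow contrast was 0.062, those of ITGB4 and ITGA3 in the deep contrast 0.11 and 0.0061, and those from E40 to E50 of LAMA3, LAMB3, LAMB1, ITGA6, ITGB4, ITGA3 and ITGB6 were -0.62, -0.29, -0.028, -0.13, -0.37, -0.076 and -0.31. With 3 stages ITGA6 was at 0.081 from E40 to E60, and from E50 to E60 LAMA2, LAMA4, ITGA6, ITGB1, ITGAV and ITGA4 were at -1.28, -0.74, -0.45, -1.05, -1.11 and -0.17. With library set as a term, from E40 to E50 LAMA3, LAMB3, LAMB1, LAMB2 and LAMA2 were at -1.44, -0.97, -0.65, -0.30 and -0.022, and ITGA6, ITGB4, ITGA3, ITGAV, ITGB6 and ITGB8 at -0.86, -0.44, -1.27, -0.053, -0.77 and -1.28. LAMA2, ITGAV and ITGB8 are the members of these called from E40 to E50 without the term.

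Among ratios from E50 to E60, within the deep set LAMB2/LAMB1 changed by -0.059, ITGB4/ITGB1 by -0.16, ITGAV/ITGB1 by 0.16 and ITGB7/ITGB2 by -0.26 on the log2 scale, and with a pseudocount of 1 ITGA6/ITGB4 by -0.014, each opposite to the value over all libraries. On leaving out 1 library, LAMB2/LAMB1 ranged from -0.039 to 0.20, ITGA6/ITGB4 from -0.18 to 0.33, ITGAV/ITGB1 from -0.17 to 0.0098, and ITGAE/ITGB7 from -0.25 to 0.46, as it did from E40 to E60. Ratios planned with LAMA5 could not be computed.

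Depth limits the members with few reads in the shallow libraries, and the single deep E60 library limits every change from E50 to E60.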

Other observations

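The makeup of the integrin alpha subunits, as shares of the summed FPKM of the 15 alpha subunits listed in each library, is given here as values only and was computed after seeing the data. ITGA6, the laminin-binding subunit of epithelium, was 36.2% ± 2.4 (SD, n = 3) of the sum at E40 and 19.3% ± 1.1 (SD, n = 3) at E50, and 19.0%, 23.6% and 28.1% in E60 libraries 1, 2 and 3. ITGAV was 20.3% ± 1.6 (SD, n = 3) at E40, 31.7% ± 1.1 (SD, n = 3) at E50, and 27.8%, 22.5% and 22.5% at E60. ITGA4 was 4.3% ± 0.6 (SD, n = 3) at E40 and 16.9% ± 1.5 (SD, n = 3) at E50, and 32.5%, 19.5% and 23.8% at E60, so that every E60 library was above every earlier one. ITGA6 held the largest share in every E40 library, ITGAV in every E50 library, and ITGA4 in the deep E60 library. In the shallow E60 libraries ITGA6 was the largest, ahead of ITGAV and ITGA4. Among the beta subunits ITGB1 held the largest share in every library, from 44.5% to 72.7%. ITGB6 was 3.09% ± 0.642 (SD, n = 3) at E40, 1.60% ± 0.0678 (SD, n = 3) at E50, and 4.96%, 6.65% and 6.60% at E60.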
